A study of Homo sapiens with 6 samples.

Results

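The nuclear genes for the subunits of the oxidative phosphorylation complexes were followed by RNA sequencing in KYSE510, an established line of oesophageal squamous cell carcinoma. The members are the protein-coding genes whose symbols name subunits of complex I (NDUFA, NDUFB, NDUFC, NDUFS and NDUFV), complex II (SDHA to SDHD), complex III (UQCR symbols and CYC1), complex IV (COX4 to COX8) or complex V (ATP5), with pseudogene symbols left out. This symbol rule found 87 of the 62700 gene IDs in the count table: 36 for complex I, 4 for complex II, 10 for complex III, 18 for complex IV and 19 for complex V. NDUFA4 is counted with complex IV, in which its protein is known to sit, and ATP5IF1, an inhibitor of the ATP synthase, and COX7A2L, a supercomplex factor, are counted with the complexes their symbols name.

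The study set 3 shRNH1 libraries, made from cells with a short hairpin RNA labelled as a knockdown of the ribonuclease RNH1, against 3 shControl libraries, whose cells carry a control hairpin and are labelled wild type. Per the labels, all cells were grown with serum, and the study's stated purpose was a model with induced R-loops, which are RNA and DNA hybrids with a displaced DNA strand. How many hairpin sequences or clones were used, and for how long, was not stated in the labels. The replicates are labelled biological, with no word on separate cultures; p-values therefore describe the spread among these libraries.

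Oxidative phosphorylation takes place in the inner mitochondrial membrane. Complexes I and II pass electrons from NADH and succinate to coenzyme Q, complex III passes them to cytochrome c, complex IV reduces oxygen, and complexes I, III and IV pump the protons whose return drives ATP synthesis in complex V. Complex II is built from nuclear genes alone, whereas the other complexes join nuclear-encoded subunits to a few made inside the mitochondrion, so that transcripts of both genomes are needed for a working enzyme. Nuclear respiratory factor 1 (NRF1), the ETS-family factor GABPA and YY1 are known to bind promoters of many of the nuclear genes.

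Library totals were 33420444, 33421217 and 31394687 counts in shRNH1 and 40225486, 41103220 and 40461210 counts in shControl. RNASEH1, the gene for ribonuclease H1, which cuts the RNA strand of R-loops, fell to 22.6% of its shControl level (log2 fold change -2.14 ± 0.12, SE; edgeR quasi-likelihood test, Benjamini-Hochberg adjusted p = 1.61e-13). The gene whose symbol is RNH1, the ribonuclease inhibitor, had a log2 fold change of -0.19 (edgeR adjusted p = 0.221), so of the genes that the label could mean, RNASEH1 is the one that fell. All 6 squamous markers were tested. Their summed level was 528 to 580 CPM (counts scaled to a common library size) in shRNH1 and 495 to 667 CPM in shControl. KRT17 made up most of this sum, at 478 ± 27.9 CPM in shRNH1 and 471 ± 85.0 CPM in shControl (SD, n = 3 each). Among the 6, SOX2 rose by 2.68 and KRT5 and KRT14 fell by 1.33 and 1.40 on the log2 scale. TP63, KRT17 and DSG3 were not called. The summed level of 4 simple-epithelium markers was 3975 to 4185 CPM in shRNH1 and 5606 to 7162 CPM in shControl; KRT8 and KRT18 fell by 0.56 and 0.92, and EPCAM and CDH1 rose by 0.44 and 0.32 on the log2 scale. The 5 leukocyte markers summed to 0.854 to 1.03 CPM in shRNH1 and 0.436 to 0.694 CPM in shControl. Of the 6 fibroblast markers, COL1A2 and DCN were at 0 in all 6 libraries and COL1A1 made up most of a sum of 111 to 133 CPM in shRNH1 and 62.6 to 71.9 CPM in shControl; COL1A1 rose by 0.98 and PDGFRB, the other marker tested, fell by 0.91. The 4 endothelial markers, with KDR at 0, summed to 18.4 to 20.7 CPM in shRNH1 and 19.98 to 21.8 CPM in shControl. The part of these marker shifts in the results below was not tested. In bulk RNA, fewer cells that express a gene and less of its RNA per cell cannot be told apart.

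Promoters are shown first because the motifs of NRF1, the ETS family and YY1 are what many members share in sequence. In the RefSeq promoter table (GRCh38.p14, 250 bases before to 50 bases after the start), 69 of the 87 members were matched. The NRF1 motif, searched on both strands with 1 free base in its middle, was present in promoters of 24.6% of these members. It was present for 6.98% of all 27305 genes with a promoter there and 9.73% of the 15301 protein-coding genes. The ETS motif CCGGAAG was present for 30.4% of members, against 12.2% of all genes and 16.7% of protein-coding genes. The YY1 motif ATGGCGG was present for 30.4% of members, against 6.66% of all genes and 9.31% of protein-coding genes. At least 1 of the 3 motifs occurred for 66.7% of members, against 21.9% of all genes and 30.1% of protein-coding genes. Below are the promoters of 3 members that passed the expression test, chosen because each holds at least 2 of these motifs: ATP5ME, lower in shRNH1, ATP5PF, higher, and SDHB, lower. Capitals mark the motif letters, on either strand, in the 250 bases before and the first 30 bases after the start.
ATP5ME promoter (chr4:674247-674526, minus strand): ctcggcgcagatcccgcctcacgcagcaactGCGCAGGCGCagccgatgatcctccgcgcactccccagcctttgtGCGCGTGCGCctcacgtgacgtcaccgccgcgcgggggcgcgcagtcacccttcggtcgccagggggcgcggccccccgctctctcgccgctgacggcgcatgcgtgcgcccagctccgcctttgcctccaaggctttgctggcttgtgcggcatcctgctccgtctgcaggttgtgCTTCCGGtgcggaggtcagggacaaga
ATP5PF promoter (chr21:25734875-25735154, minus strand, 1 of 2 starts in the table): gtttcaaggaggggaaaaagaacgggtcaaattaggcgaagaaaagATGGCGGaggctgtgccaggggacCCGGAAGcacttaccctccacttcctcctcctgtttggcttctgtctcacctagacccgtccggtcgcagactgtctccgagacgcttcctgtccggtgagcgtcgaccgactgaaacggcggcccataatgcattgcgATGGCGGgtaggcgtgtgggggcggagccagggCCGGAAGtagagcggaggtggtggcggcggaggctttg
SDHB promoter (chr1:17054003-17054282, minus strand): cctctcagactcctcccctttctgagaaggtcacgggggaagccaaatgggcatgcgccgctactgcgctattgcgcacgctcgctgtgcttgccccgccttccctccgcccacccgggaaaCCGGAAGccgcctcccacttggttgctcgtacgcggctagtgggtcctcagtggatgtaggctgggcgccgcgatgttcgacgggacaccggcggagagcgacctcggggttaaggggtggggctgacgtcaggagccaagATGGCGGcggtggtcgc

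Calls in both directions occurred among members with and without each motif. Among tested members with the NRF1 motif, 1 of 16 was called higher and 1 lower, with a median log2 fold change of 0.058, against 6 higher and 3 lower of 50 without it, with a median of 0.046. Of 21 members with the ETS motif, 2 were called higher and 3 lower, against 5 higher and 1 lower of the 45 without it. Median log2 fold changes were -0.0097 with the ETS motif and 0.074 without it. For the YY1 motif, 3 of 21 members that held it were called higher and 2 lower, against 4 higher and 2 lower of the other 45. The medians were 0.083 with the YY1 motif and 0.034 without it. Over all genes tested, 15.3% were called higher and 12.3% lower. Differences between members with and without a motif were not tested. A motif match describes the letters in this window and does not show binding.

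Most subunit mRNAs differed little between shRNH1 and shControl cells. Of the 87 members, 82 passed the filter on low counts and were tested. UQCRHL, a copy of the hinge subunit gene, was present at 3 to 17 counts per library and was not tested, and COX4I2, COX6A2, COX7B2 and COX8C were listed at 0 in all 6 libraries. At an adjusted p below 0.05 by edgeR's quasi-likelihood test, 13 of 82 members (15.9%) were called, beside 27.6% of the 19682 genes tested and 34.8% of the tested protein-coding genes. Higher in shRNH1 were 8 members (9.76%, beside 15.3% of all genes tested), and 5 were lower (6.10%, beside 12.3%). Scaled by library size alone, which moved the median of all genes to 0.13, 14 members were called higher and 2 lower, and 73.9% of all calls were higher, beside 55.4% with TMM. The median log2 fold change of the members was 0.011, against 0.016 for all genes tested. Within 0.5 of 0 lay 77 of 82 members (93.9%), beside 73.6% of all genes tested and 77.2% of tested protein-coding genes. For 67 members (81.7%), the whole 95% interval of the fold change lay inside 1.5-fold in either direction. The same held for 42.0% of all genes tested and 57.1% of tested protein-coding genes. CPM of the 2 groups did not overlap for 19 members (23.2%), beside 40.0% of all genes tested and 47.3% of tested protein-coding genes. At an unadjusted p below 0.05 by the same edgeR test there were 18 members, beside 7333 of the 19682 genes tested.

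**Figure D1:**
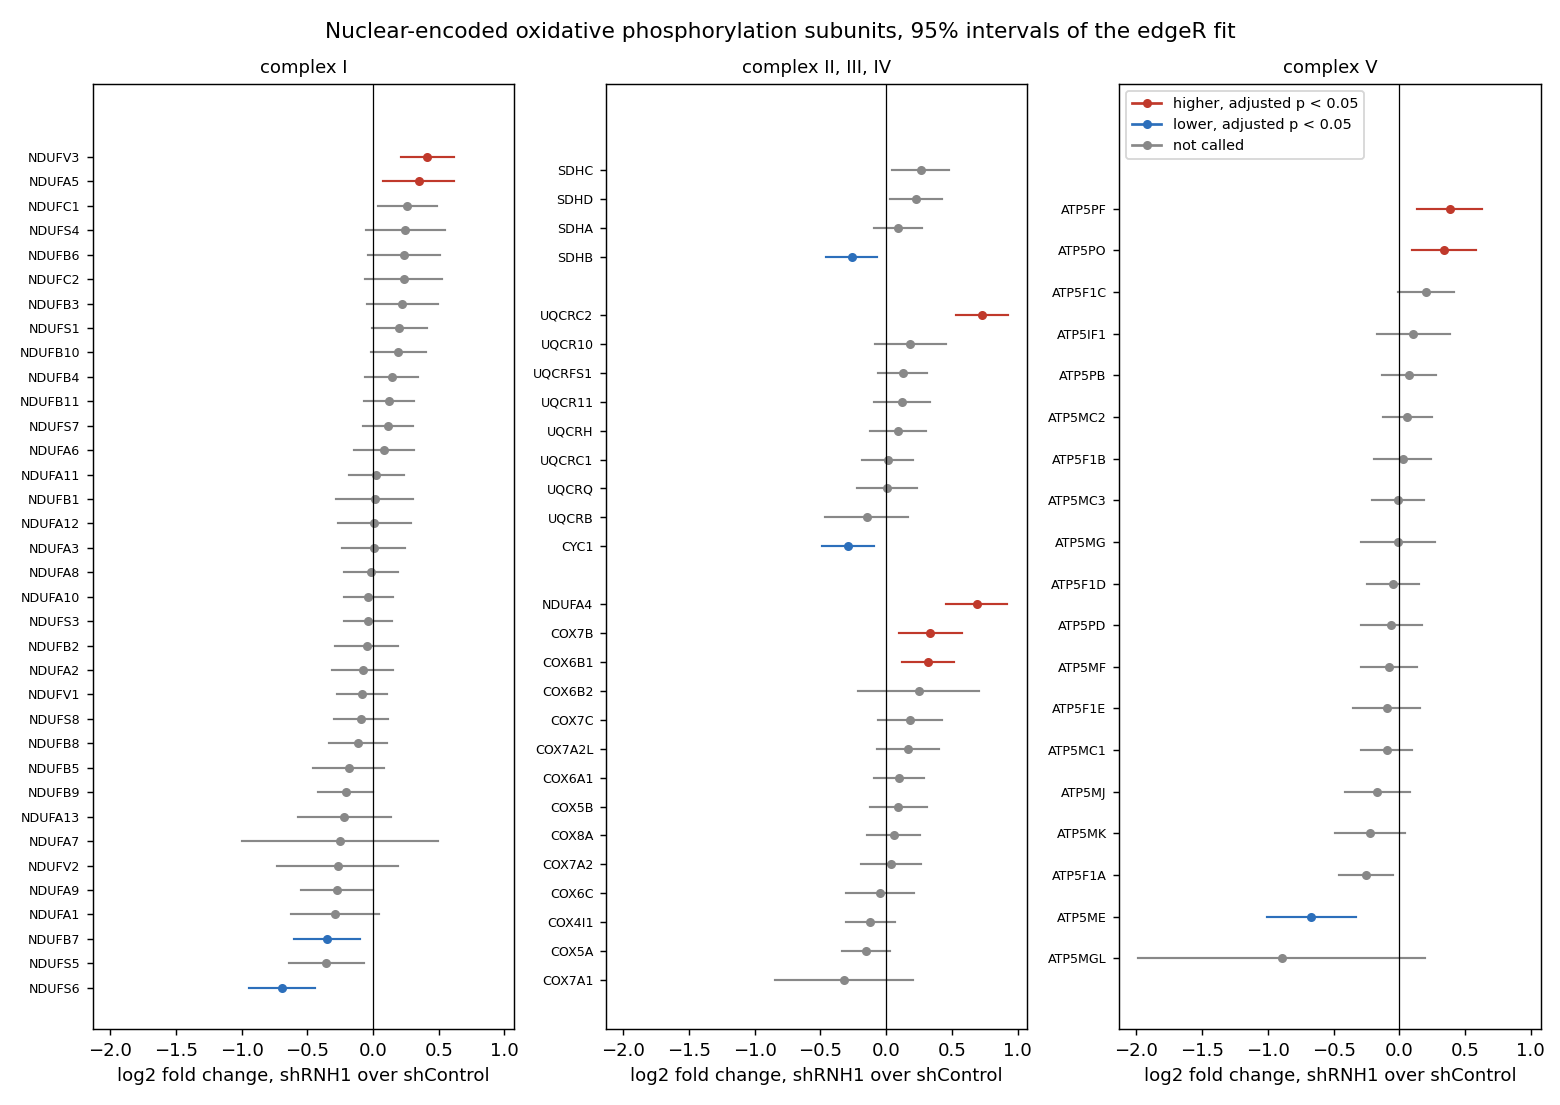
Log2 fold change of 81 of the 82 tested subunit genes, shRNH1 over shControl (horizontal axis), with the 95% interval of the edgeR fit, grouped by complex and sorted within it. Most intervals cross 0, and the ends of the range are UQCRC2 at 0.73, NDUFA4 at 0.69, NDUFS6 at -0.69, ATP5ME at -0.67 and the scarcely counted, uncalled ATP5MGL at -0.89.

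The share of all counts that fell on the members was 0.601%, 0.545% and 0.620% in the shRNH1 libraries and 0.568%, 0.550% and 0.522% in the shControl libraries, so the groups overlapped. Summed CPM over the 82 tested members were 5922, 5187 and 5895 in shRNH1 and 5867, 5468 and 5734 in shControl. The low value in shRNH1 was replicate 2, and it was spread over the set: 58 of the 82 members had their lowest shRNH1 value there, and 37 had their lowest value of all 6 libraries there. The median deviation of a member from its shControl mean was 0.12, -0.14 and 0.066 on the log2 CPM scale in shRNH1 replicates 1 to 3, against 0.075, -0.033 and -0.038 in shControl. Without shRNH1 replicate 2, 16 members were called higher and 4 lower, beside 2895 and 2315 of the 20731 genes tested in that fit. The median member then had a log2 fold change of 0.097, beside 0.016 for all genes of that fit. ATP5F1C, COX7A2L, COX7C, NDUFB10, NDUFC2, NDUFS1, SDHC and UQCR10 were then among those called higher. Without shRNH1 replicate 1 there were 3 higher and 2 lower, beside 2336 and 1814 of 20914 genes. Without shRNH1 replicate 3 there were 3 higher and 3 lower, beside 2623 and 1880 of 20745 genes. With 1 shControl library left out, 4 or 5 were higher and, without replicate 1 or 3, 3 were lower. Over all genes, 2526 to 2996 were higher and 1936 to 2179 lower in these fits, of 19972 to 20180 tested.

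Within each complex, genes were ordered by level per length (counts per kilobase of annotated exon, scaled to the same total in each library, without TMM). The exon length is merged over all annotated transcripts of a gene. It was 9715 bases for UQCRB and 14160 for SDHC, against 1975 for CYC1 and 2462 for SDHB. Where the merged length exceeds that of the expressed mRNA, the level is understated, and the part of this in the order was not tested. ATP5F1B, the catalytic beta subunit of the ATP synthase, stood highest in complex V at 1630 ± 199 in shRNH1 and 1470 ± 123 in shControl (SD, n = 3 each). NDUFB7, an accessory subunit on the intermembrane side of complex I, stood highest in its complex at 1120 ± 178 in shRNH1 and 1300 ± 227 in shControl, and NDUFA7 lowest at 2.46 ± 1.36 in shRNH1 and 2.74 ± 0.802 in shControl. In complex IV the highest was COX8A at 930 ± 93.1 in shRNH1 and 818 ± 12.6 in shControl. The lowest tested complex IV member was COX6B2, whose transcript is best known from testis, at 3.56 ± 0.688 in shRNH1 and 2.73 ± 0.812 in shControl. CYC1 led complex III at 655 ± 10.1 in shRNH1 and 730 ± 19.8 in shControl, and UQCRB was lowest of its tested genes at 4.07 ± 0.778 in shRNH1 and 4.13 ± 0.918 in shControl. Within complex II, SDHB stood at 101 ± 10.1 in shRNH1 and 110 ± 4.47 in shControl, and SDHC at 8.29 ± 1.00 in shRNH1 and 6.33 ± 0.622 in shControl. ATP5MGL, a copy of the gene for subunit g, was the lowest of complex V at 1.17 ± 0.537 in shRNH1 and 2.01 ± 1.06 in shControl. Apart from CYC1, SDHC and COX8A, the mean ± SD ranges of the 2 groups overlapped for each of these genes. With TMM, the CPM of the groups overlapped for COX8A, which was not called (log2 fold change 0.059, edgeR adjusted p = 0.71). In the annotation, other genes overlap 33.5% of the exon length of NDUFA7, 30.9% of COX6B2 and 34.5% of COX8A, almost all on the same strand. Reads from shared stretches cannot be told apart, and their part in these levels was not tested.

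**Figure D2:**
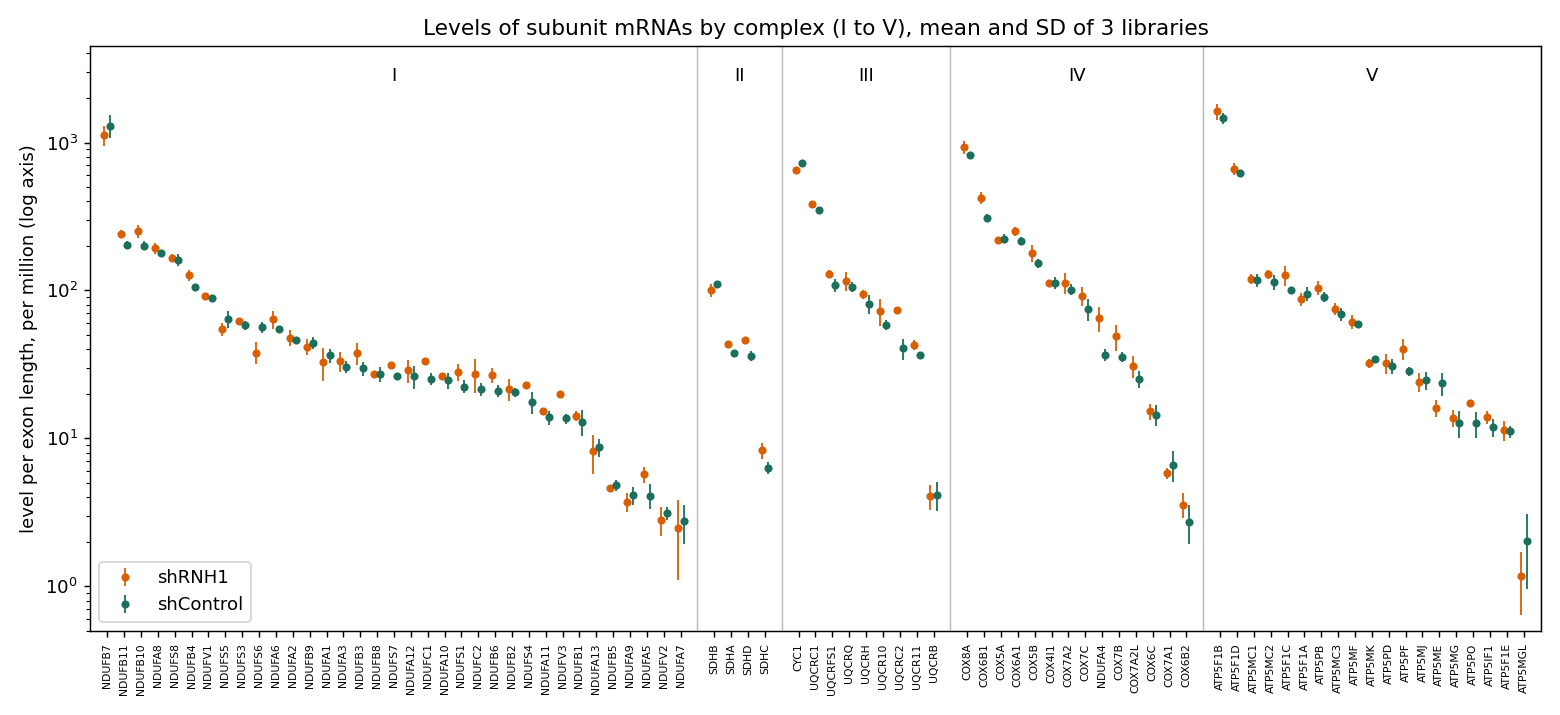
Level per exon length (vertical, log axis, scaled to the same total in each library) of 81 of the 82 tested subunit mRNAs by complex, shRNH1 left of shControl for each gene, mean and SD of 3 libraries. Within a complex the levels span more than the difference between groups, as in complex V, where ATP5F1B stood at 1630 in shRNH1 and 1470 in shControl and ATP5MGL at 1.17 in shRNH1 and 2.01 in shControl.

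Complex I showed no common direction. Of its 36 genes, 2 rose and 2 fell (5.56% each, beside 15.3% and 12.3% of all genes tested), and 32 were not called. The median log2 fold change was -0.025, or 0.086 when scaled by library size alone. With 1 library left out in turn, that median ran from -0.070 (without shRNH1 replicate 1) to 0.064 (without shRNH1 replicate 2). None of the 7 nuclear-encoded core subunits passed: these genes, whose proteins hold the flavin, the iron-sulphur clusters and the quinone site, ran from -0.27 to 0.20, with a median of -0.036. NDUFV2 was counted at a low level, 1.93 ± 0.404 CPM in shRNH1 and 2.32 ± 0.0863 CPM in shControl, so its interval was wide. In the annotation, 28.4% of its exon length is overlapped by another gene on the same strand. The 4 calls were all among the 29 accessory subunits.

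NDUFS6, a zinc-binding accessory subunit needed late in the assembly of the NADH-oxidising arm, had 16.4, 14.3 and 11.2 CPM in shRNH1 and 25.0, 20.97 and 21.8 CPM in shControl. Every shRNH1 library lay below every shControl library. Its log2 fold change was -0.69 ± 0.12 (SE; edgeR quasi-likelihood adjusted p = 0.000103), the largest fall of a called member (chr5:1801400-1816605). NDUFB7 had 132, 171 and 149 CPM in shRNH1 and 175, 158 and 243 CPM in shControl. The groups overlapped, with shControl replicate 3 well above the other libraries, and the log2 fold change was -0.35 ± 0.12 (edgeR adjusted p = 0.0341). Without shControl replicate 3, shRNH1 replicate 1 or shRNH1 replicate 3, NDUFB7 was no longer called, with log2 fold changes of -0.34 to -0.14 and adjusted p of 0.064 to 0.332 by edgeR.

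NDUFV3, a small accessory subunit beside the NADH-binding site, had 34.5, 31.2 and 29.9 CPM in shRNH1 and 22.9, 24.3 and 24.6 CPM in shControl. All shRNH1 libraries stood above all shControl libraries, and the log2 fold change was 0.41 ± 0.099 (edgeR adjusted p = 0.00218; chr21:42879644-42913304). NDUFA5, an accessory subunit of the matrix arm, had 14.1, 12.5 and 16.1 CPM in shRNH1 and 13.5, 10.5 and 9.53 CPM in shControl. One shRNH1 library, replicate 2, lay below the highest shControl library, and the rise of 0.35 ± 0.13 was close to the threshold (edgeR adjusted p = 0.0493). Leaving out shControl replicate 2 or 3 or shRNH1 replicate 1 or 3 ended the NDUFA5 call, with log2 fold changes of 0.25 to 0.35 and edgeR adjusted p of 0.130 to 0.222. NDUFS5 had the second lowest value of the complex at -0.35 and was not called (edgeR adjusted p = 0.0568).

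In complex II, 1 of the 4 genes passed the test (25.0%, beside 27.6% of all genes tested). The median log2 fold change was 0.16. SDHB, the iron-sulphur subunit that carries electrons from the flavin to the membrane anchor, had 64.1, 55.4 and 68.7 CPM in shRNH1 and 76.0, 73.0 and 76.6 CPM in shControl. No shRNH1 library reached the shControl range, and the log2 fold change was -0.26 ± 0.095 (edgeR adjusted p = 0.0404). This call was lost on leaving out any 1 library other than shRNH1 replicate 3, with log2 fold changes of -0.29 to -0.18 and edgeR adjusted p of 0.0610 to 0.180. SDHA, the flavin subunit that oxidises succinate, had 97.4, 90.7 and 89.4 CPM in shRNH1 and 88.8, 84.1 and 87.7 CPM in shControl, a log2 fold change of 0.090 that did not pass (edgeR adjusted p = 0.50). The anchors SDHC and SDHD had log2 fold changes of 0.26 (edgeR adjusted p = 0.0657) and 0.23 (edgeR adjusted p = 0.0797). SDHD had 33.3, 31.8 and 33.9 CPM in shRNH1 and 30.0, 27.3 and 27.2 CPM in shControl, without overlap, whereas the groups overlapped for SDHC. The differences between these genes were not tested. With shRNH1 replicate 2 left out, SDHC was called higher, as given above.

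Complex III held the largest rise of the whole set. UQCRC2, a core protein on the matrix side of the complex that carries no redox group, had 102, 91.6 and 96.9 CPM in shRNH1 and 60.1, 62.9 and 51.7 CPM in shControl. The groups stood far apart, and the log2 fold change was 0.73 ± 0.096 (edgeR adjusted p = 1.49e-06; chr16:21952660-21983660). UQCRC1, its partner in the core, was at 0.013, with 317 ± 14.2 CPM in shRNH1 and 314 ± 22.8 CPM in shControl (edgeR adjusted p = 0.941).

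CYC1, the haem-bearing cytochrome c1 that hands electrons to cytochrome c, had 332, 323 and 326 CPM in shRNH1 and 409.6, 359.7 and 429.9 CPM in shControl. The shRNH1 values were close together and below all shControl values, with a log2 fold change of -0.29 ± 0.095 (edgeR adjusted p = 0.0239). Leaving out shControl replicate 1 or 3 or shRNH1 replicate 1 or 3 ended this call, with log2 fold changes of -0.30 to -0.23 and edgeR adjusted p of 0.0595 to 0.116. The Rieske iron-sulphur protein UQCRFS1 was at 0.13 (edgeR adjusted p = 0.330), and the remaining 5 tested members, UQCRB, UQCRH, UQCRQ, UQCR10 and UQCR11, were not called. Over the 9 tested genes of complex III the median log2 fold change was 0.088, and it was 0.013 without shRNH1 replicate 1, 0.15 without shRNH1 replicate 2, 0.057 without shRNH1 replicate 3 and 0.038 without shControl replicate 3.

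In complex IV, 3 of the 14 tested genes rose (21.4%, beside 15.3% of all genes tested and 19.0% of tested protein-coding genes). None was called lower, beside 12.3% of all genes tested, and the median log2 fold change was 0.095. That median was 0.014 without shRNH1 replicate 1, 0.20 without shRNH1 replicate 2 and 0.062 without shControl replicate 2. NDUFA4, a small subunit once assigned to complex I, had 53.0, 51.8 and 70.6 CPM in shRNH1 and 40.4, 32.5 and 35.7 CPM in shControl. Each shRNH1 library lay above each shControl library, replicate 3 by the widest margin, and the log2 fold change was 0.69 ± 0.11 (edgeR adjusted p = 3.61e-05; chr7:10931951-10940256). NDUFA4L2, a paralog known to be induced by hypoxia and outside the symbol rule, was low, at 1.94 ± 0.392 CPM in shRNH1 and 2.18 ± 0.0892 CPM in shControl, and was not called (edgeR adjusted p = 0.639).

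COX6B1, which joins the monomers of the complex IV dimer on the intermembrane side, had 109.3, 87.1 and 104 CPM in shRNH1 and 80.0, 79.7 and 81.6 CPM in shControl. Its shControl values were nearly equal and all shRNH1 values exceeded them, with a log2 fold change of 0.32 ± 0.096 (edgeR adjusted p = 0.0137). COX7B, a small membrane subunit, had 38.4, 29.4 and 44.4 CPM in shRNH1 and 32.1, 28.0 and 28.7 CPM in shControl. Here shRNH1 replicate 2 fell inside the shControl range, and the log2 fold change was 0.34 ± 0.12 (edgeR adjusted p = 0.0332). Both calls ended on leaving out shRNH1 replicate 1 or 3 or shControl replicate 2, and also without shControl replicate 1 for COX6B1 and without shControl replicate 3 for COX7B; log2 fold changes were then 0.25 to 0.31 for COX6B1 (edgeR adjusted p 0.0541 to 0.108) and 0.19 to 0.32 for COX7B (0.0579 to 0.279). COX7A2L was at 0.16 (edgeR adjusted p = 0.318), and COX4I1, the usual form of the subunit 4 that binds ATP, at -0.12 (edgeR adjusted p = 0.364). COX7A1 had the lowest value of the complex at -0.32, from 1.48 ± 0.104 CPM in shRNH1 and 1.85 ± 0.423 CPM in shControl, and was not called.

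Of the 19 genes of complex V, 2 rose and 1 fell (10.5% and 5.26%, beside 15.3% and 12.3% of all genes tested). The median log2 fold change was -0.048, or 0.069 when scaled by library size alone. With 1 library left out in turn, that median ran from -0.091 (without shControl replicate 2) to 0.056 (without shRNH1 replicate 2). In the F1 head, where ATP is made, none of the 5 genes was called. ATP5F1B was at 0.025, and ATP5F1A, the alpha subunit, had the lowest value at -0.25 (edgeR adjusted p = 0.0631). ATP5F1A had 253, 209 and 259.5 CPM in shRNH1 and 309.9, 283 and 267 CPM in shControl, without overlap. The 3 genes for the c subunit of the rotor ring, ATP5MC1, ATP5MC2 and ATP5MC3, lay between -0.097 and 0.059 with no call.

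The peripheral stalk, which holds the head still against the rotor, had both rises of complex V among its 4 genes. ATP5PF, coupling factor 6, had 22.6, 16.8 and 23.4 CPM in shRNH1 and 14.8, 15.9 and 17.4 CPM in shControl. Replicates 1 and 3 of shRNH1 were higher than all other libraries and replicate 2 lay within the shControl range; the log2 fold change was 0.38 ± 0.12 (edgeR adjusted p = 0.0172). ATP5PO, the oligomycin sensitivity-conferring protein, had 14.2, 14.5 and 15.1 CPM in shRNH1 and 11.1, 13.3 and 10.3 CPM in shControl. The shRNH1 values were tight and above all shControl values, with a log2 fold change of 0.34 ± 0.12 (edgeR adjusted p = 0.0318). Each call was lost in 4 of the 6 fits that left out 1 library. For ATP5PF these were without shControl replicate 1 or 2 or shRNH1 replicate 1 or 3 (log2 fold changes of 0.30 to 0.37, edgeR adjusted p 0.0551 to 0.119). For ATP5PO they were without shControl replicate 1 or 3 or shRNH1 replicate 1 or 3 (log2 fold changes of 0.27 to 0.36, edgeR adjusted p 0.0727 to 0.132). ATP5PB and ATP5PD, the other stalk genes, were at 0.074 and -0.060 and were not called. In the annotation, GABPA and JAM2 on the other strand overlap 23.05% of the exon length of ATP5PF. Other genes overlap 25.45% of that of ATP5PO, 19.6% on the same strand. The part of shared reads in these rises was not tested.

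All 6 genes for the small membrane subunits of complex V had negative log2 fold changes with TMM, with a median of -0.19. Scaled by library size alone, 4 of 6 were negative, with a median of -0.081, and 1 of the 6 passed under both scalings. With TMM, 12 of the 19 complex V genes were negative, as were 38 of 82 members and 9500 of the 19682 genes tested. The smallest falls of the 6 were ATP5MG at -0.0097 and ATP5MF at -0.079. ATP5ME, subunit e, which takes part in the pairing of ATP synthase units, had 4.48, 3.73 and 3.27 CPM in shRNH1 and 6.83, 6.27 and 5.16 CPM in shControl. The groups did not overlap, and the log2 fold change was -0.67 ± 0.17 (edgeR adjusted p = 0.00319; chr4:672436-674338). In the annotation, 61.6% of the exon length of ATP5ME is overlapped by MYL5 on the other strand, and MYL5 rose by 0.54 ± 0.14 (edgeR adjusted p = 0.00427); the labels do not state strand use in counting, and reads from the shared stretch cannot be told apart. ATP5MGL had the lowest value of the set at -0.89, but with 0.235 ± 0.103 CPM in shRNH1 and 0.437 ± 0.215 CPM in shControl its interval ran from -1.99 to 0.20. ATP5IF1, the inhibitor that stops the enzyme from running backwards, was at 0.11 (edgeR adjusted p = 0.616).

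**Figure D3:**
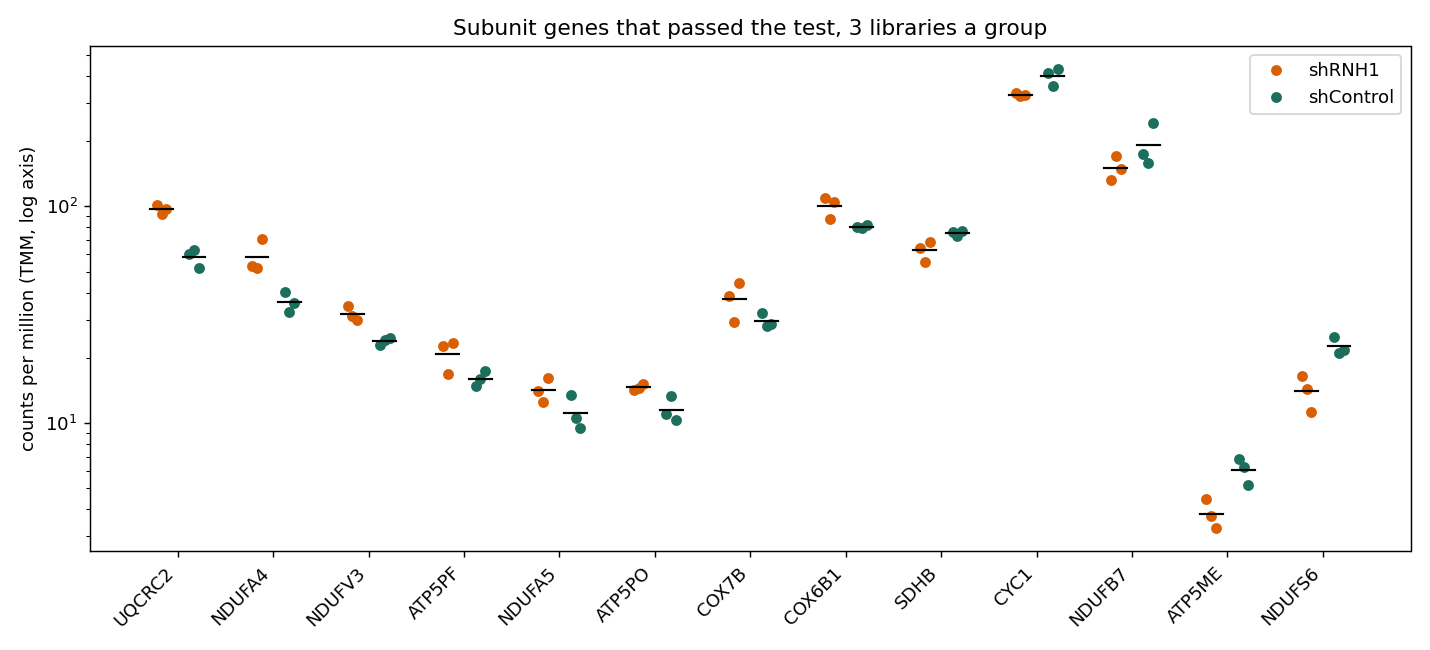
CPM (vertical, log axis) of the 13 called subunit genes in each library, shRNH1 left of shControl, with black lines at the group means, ordered by log2 fold change. UQCRC2, NDUFA4, NDUFV3, COX6B1 and ATP5PO have every shRNH1 point above every shControl point, and SDHB, CYC1, ATP5ME and NDUFS6 have every shRNH1 point below; ATP5PF, NDUFA5, COX7B and NDUFB7 overlap.

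Several subunits have isoforms from separate genes that mark tissues or states, and the share of counts that each took (not corrected for length) was compared in every library. Listed at 0 were the lung and hypoxia form COX4I2, the heart and muscle form COX6A2, and COX7B2 and COX8C, which are best known from testis. At the depth of their partners, a count of 0 allows COX4I2 a share of up to 0.0665% of the pair in the shallowest library. COX7A1, the muscle form of COX7A, took 2.70 ± 0.739% of its pair in shRNH1 and 3.35 ± 0.912% in shControl (SD, n = 3 each). COX6B2 took 3.33 ± 0.633% in shRNH1 and 3.47 ± 1.13% in shControl, UQCRHL 0.517 ± 0.212% in shRNH1 and 0.935 ± 0.591% in shControl, and ATP5MGL 1.96 ± 0.890% in shRNH1 and 3.53 ± 1.72% in shControl. Among the c-subunit genes, ATP5MC1 had 23.4 ± 1.46% in shRNH1 and 24.9 ± 0.174% in shControl, ATP5MC2 38.6 ± 1.32% in shRNH1 and 36.9 ± 1.68% in shControl, and ATP5MC3 38.0 ± 0.920% in shRNH1 and 38.2 ± 1.70% in shControl. In 7 exact two-sided permutation tests the p-values ran from 0.3 to 0.9 (Benjamini-Hochberg adjusted 0.525 to 0.9), and 3 libraries against 3 allow no p below 0.1.

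The chromosomal position of the members was set beside their values, a choice made after the values were seen. For each member the median log2 fold change of up to 10 expressed protein-coding genes on each side was taken, where expressed means a mean log2 CPM of 2 or more. UQCRC2 on chromosome 16 had a neighbour median of 0.45, with 14 of 20 neighbours higher and 0 lower, and of its 4 nearest genes MOSMO, EEF2K and METTL9 rose by 0.58, 0.47 and 0.58, while POLR3E, at 0.23, was not called. NDUFA4 on chromosome 7 had a neighbour median of 0.48, with 14 of 20 higher and 0 lower, and its 3 nearest genes all rose, PHF14 by 0.63, TMEM106B by 0.70 and VWDE by 0.40. NDUFS6 on chromosome 5 had a neighbour median of -0.35, with 13 of 20 lower and 1 higher; of its 4 nearest genes MRPL36, IRX4 and CLPTM1L fell by 0.29, 0.34 and 0.29, and LPCAT1, at -0.10, was not called. ATP5ME, near the end of chromosome 4, had a neighbour median of -0.011, with 2 of 13 higher and 0 lower.

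**Figure D4:**
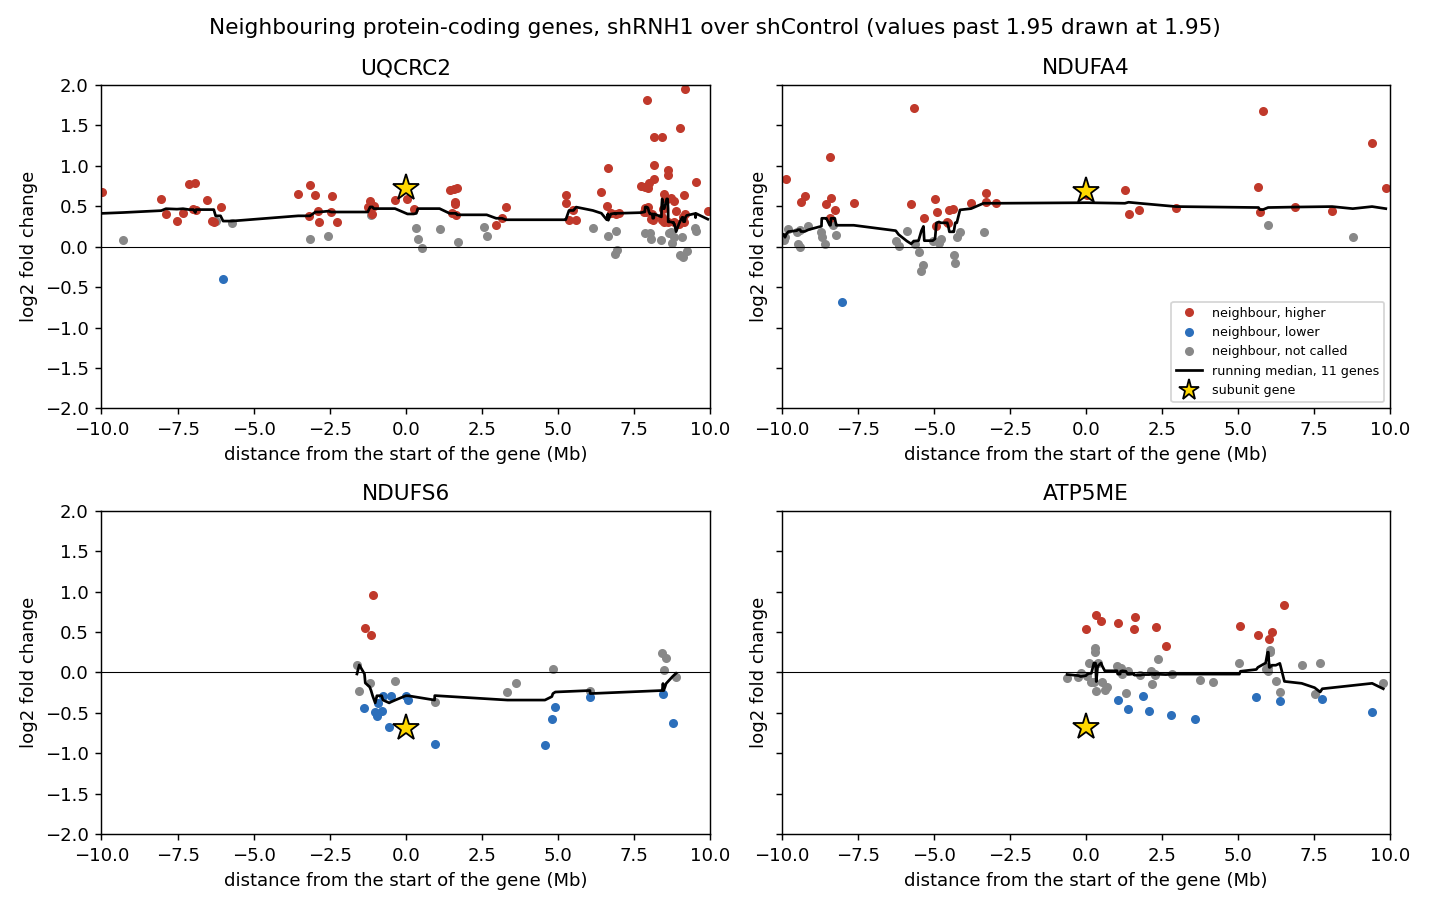
Log2 fold change (shRNH1 over shControl) of expressed protein-coding genes within 10 Mb of UQCRC2, NDUFA4, NDUFS6 and ATP5ME (stars at distance 0), coloured by call, with a running median over 11 genes. Around UQCRC2 89 of 122 neighbours were higher and 1 lower, around NDUFA4 35 of 66 were higher and 1 lower, around NDUFS6 17 of 33 were lower and 3 higher, and around ATP5ME 13 of 64 were higher and 10 lower.

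Longer stretches, also chosen after these values were seen, were then summarised. In the first 60 Mb of chromosome 7, which holds NDUFA4, 173 expressed protein-coding genes had a median log2 fold change of 0.40, with 60.7% higher and 1.16% lower, while the other 289 genes of the chromosome, which include NDUFA5, ATP5MF and NDUFB2, had a median of -0.083. The first 40 Mb of chromosome 16, with UQCRC2 and NDUFB10, had a median of 0.34 over 272 genes, 61.0% of them higher, and the rest of that chromosome, with COX4I1, a median of -0.084 over 229 genes. On chromosome 21, ATP5PF, ATP5PO and NDUFV3 are the 3 tested members, and all 3 rose. There, 100 genes had a median of 0.18, with 38.0% higher and 13.0% lower. The neighbour median was 0.22 for ATP5PF and 0.24 for ATP5PO. For NDUFV3 it was 0.054, with 4 of 20 neighbours higher and 5 lower. On chromosome 18, with ATP5F1A and NDUFV2, neither of them called, 141 genes had a median of -0.26 and 46.1% were lower. The first 10 Mb of chromosome 5, with NDUFS6 and SDHA, had a median of -0.29 over 27 genes, 55.6% of them lower.

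The shifts were present in each shRNH1 library. The median deviation from the shControl mean over the chromosome 7 stretch was 0.39, 0.35 and 0.40 in shRNH1 replicates 1 to 3, against -0.015, -0.028 and 0.040 in shControl. Over the chromosome 16 stretch it was 0.38, 0.37 and 0.29 in shRNH1, against -0.043, -0.059 and 0.090 in shControl. On chromosome 18 it was -0.30, -0.31 and -0.20 in shRNH1, against 0.027, -0.025 and 0.0041 in shControl. The cause of these regional shifts, and their part in the values of the members, was not tested.

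**Figure D5:**
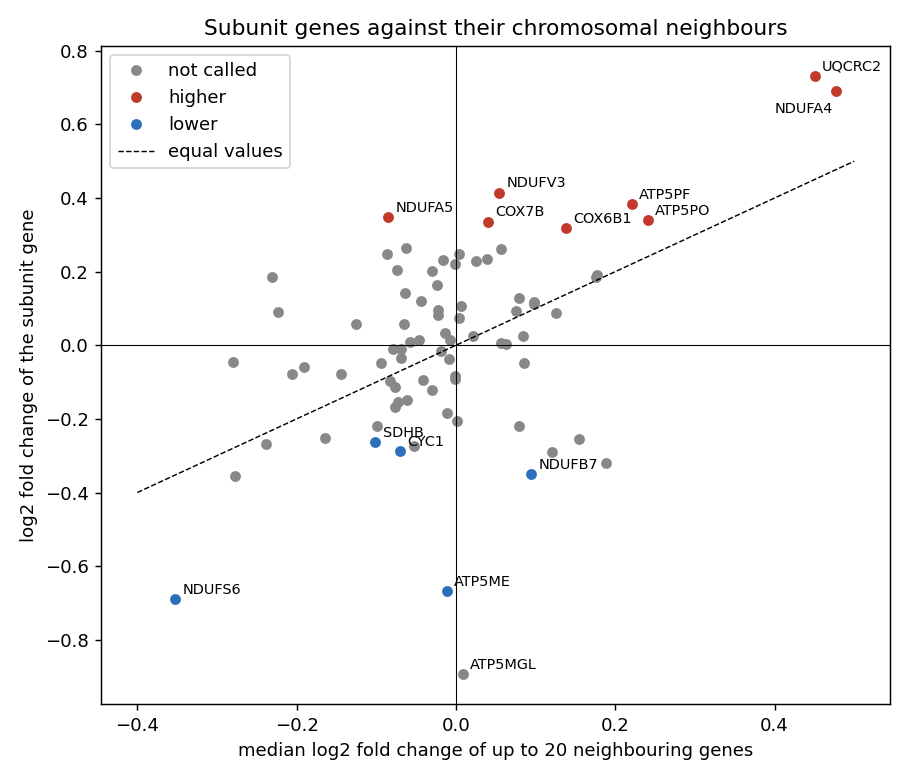
Log2 fold change of 81 of the 82 tested subunit genes (vertical) against the median log2 fold change of up to 20 neighbouring genes (horizontal), coloured by call; the dashed line marks equal values. UQCRC2 and NDUFA4 lie at the upper right with neighbour medians of 0.45 and 0.48, NDUFS6 at the lower left with -0.35, and ATP5ME below 0 with neighbours at -0.011.

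Over the 82 members, log2 fold change and neighbour median had a Pearson r of 0.466 and a Spearman rho of 0.334, against 0.213 and 0.220 over the other 10234 expressed protein-coding genes; members that lie side by side share neighbours, all values come from the same 6 libraries, and genes are not independent replicates. Of the 13 called members, 5 had a neighbour median past 0.2 in the same direction. Of the 69 that were not called, 6 had a neighbour median past 0.2 in either direction. When each gene's neighbour median was taken off as an offset, an alternative added after the data were seen, NDUFA4 had a log2 fold change of 0.21 and was no longer called (edgeR adjusted p = 0.178, and 0.103 with 20 genes a side). UQCRC2 kept a rise of 0.28 and NDUFS6 a fall of 0.34, with edgeR adjusted p of 0.029 and 0.0427. The offset entered the fit as a fixed value, so p-values with it leave out the spread among the neighbours. Whether a member stood out from its single neighbours was not tested. COX7B and CYC1 also lost their calls, at 0.30 and -0.22 after the offset, against 0.34 and -0.29 before it. ATP5PF, ATP5PO, COX6B1 and SDHB lost theirs at 0.16, 0.0995, 0.18 and -0.16. SDHA, SDHC and UQCR10 were called higher with 10 genes a side, and SDHA, ATP5F1C and UQCR10 with 20.

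Genes that build, feed and control the complexes were taken as companion lists. Of 19 complex I assembly factors, COA1 rose by 0.56 ± 0.097 and 3 fell, NDUFAF8 by 0.57, TMEM70 by 0.33 and DMAC2 by 0.28 (5.26% higher and 15.8% lower, beside 15.3% and 12.3% of all genes tested). The median was -0.025; scaled by library size alone it was 0.081, with 4 higher and 1 lower. COA1 lies on chromosome 7 with a neighbour median of 0.31. Of 28 tested complex IV assembly factors, 6 fell (21.4%, beside 12.3% of all genes tested) and none was called higher (beside 15.3%), with a median of -0.090; scaled by library size alone, 3 were higher and 1 lower, with a median of 0.022. TACO1, an activator of COX1 translation, fell by 0.44 ± 0.11, COX10, which farnesylates haem for complex IV, by 0.36 ± 0.092, PNKD by 0.30 and COA7 by 0.32. COX10 lies on chromosome 17 with a neighbour median of -0.25. The median of 4 complex II assembly factors was 0.28. Of these 4, SDHAF4 rose by 0.50 ± 0.19, close to the threshold (edgeR adjusted p = 0.0490). Thus 25.0% were higher, beside 15.3% of all genes tested. Scaled by the size factors of DESeq2, 0 were higher. By library size alone 2 were higher, with a median of 0.40.

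Among 9 complex III assembly factors, LYRM7 and UQCC4 rose by 0.36 and 0.34. UQCC4 lies in the raised stretch of chromosome 16, with a neighbour median of 0.32. BCS1L, which inserts the Rieske protein, and UQCC1 fell by 0.38 and 0.36. Thus 22.2% were higher and 22.2% lower, beside 15.3% and 12.3% of all genes tested. Scaled by library size alone, 3 were higher and 0 lower. Of 5 complex V assembly factors, TMEM242 fell by 0.52 ± 0.16; scaled by library size alone, 1 was higher and 0 lower. In the list of electron carriers and coenzyme Q synthesis, 6 of 18 genes rose (33.3%, beside 15.3% of all genes tested) and 1 fell (5.56%, beside 12.3%), with a median of 0.20; scaled by library size alone, 9 were higher and 0 lower, with a median of 0.31. COQ7, a hydroxylase of coenzyme Q synthesis, rose by 0.44, ETFDH, which passes electrons from fatty acid oxidation to coenzyme Q, by 0.42, COQ2 by 0.32 and COQ8B by 0.31. COQ7 lies in the raised stretch of chromosome 16, with a neighbour median of 0.40. NDUFAB1, the acyl carrier protein that is also a complex I subunit and falls outside the symbol rule, rose by 0.55 ± 0.10 (edgeR adjusted p = 0.000161) and has a neighbour median of 0.40 on the same chromosome.

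Of 19 genes of the tricarboxylic acid cycle and its entry points, 2 rose (10.5%, beside 15.3% of all genes tested) and none was called lower: IDH2, the mitochondrial NADP-dependent isocitrate dehydrogenase, by 0.92 ± 0.12, and PC, pyruvate carboxylase, by 0.40 ± 0.098, with a median over the list of 0.037. Scaled by library size alone, 5 were higher and the median was 0.15.

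Of 11 tested regulators of mitochondrial biogenesis, 2 rose and 6 fell (3 and 3 when scaled by library size alone), beside 27.6% of all genes called in either direction. PPARGC1A, the coactivator PGC-1alpha, rose by 1.30 ± 0.13, with 12.2 ± 0.758 CPM in shRNH1 and 4.96 ± 0.572 CPM in shControl (SD, n = 3 each; edgeR adjusted p = 3.04e-08). PPARA, a nuclear receptor of fatty acid oxidation, rose by 0.90 ± 0.097 (edgeR adjusted p = 6.90e-08). PPRC1 and PPARGC1B, relatives of PPARGC1A, fell by 0.69 ± 0.093 and 0.66 ± 0.093. The other 4 that fell, named after their values were seen, were NRF1 by 0.39 ± 0.096, TFAM, the packaging and transcription factor of mitochondrial DNA, by 0.36 ± 0.096, the receptor ESRRA by 0.31 ± 0.093 and YY1 by 0.26 ± 0.091. GABPA, which shares its promoter region with ATP5PF, was at 0.22 (edgeR adjusted p = 0.170). The median of the list was -0.26, beside 0.011 for the subunit genes.

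The mitochondrially encoded partners could not be set beside the nuclear genes. All 37 genes of the mitochondrial chromosome, with the 13 that encode subunits, were listed at 0 in the 6 libraries. The labels do not say whether these genes were counted.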

How the data were processed

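The members and gene lists were chosen with earlier results of these data known. The authors deposited raw gene counts in whole numbers, without normalisation. HISAT2, StringTie, DESeq2 and the GRCh38 build are named, per the submitters' processing notes; their versions and roles, the annotation and strand use were not given in the sources used here. Per the labels' protocols, poly(A) RNA was selected and copied with random primers. Many subunits have processed pseudogenes; 50 of those matching the symbol rule had any count, 0.232% to 0.303% of the member counts, and reads shared with a near-identical copy cannot be told apart.

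Groups were compared by quasi-likelihood in edgeR 4.0.16 (R 4.3.3) with TMM, filterByExpr and no covariate, Benjamini-Hochberg adjusted over 19682 genes at 0.05; SEs come from the F statistic. CPM are normalised by TMM; positions, gene types and exon lengths are from GENCODE 29, which held 58207 of the IDs, and symbols covered all 62700. Alternatives used limma 3.58.1, DESeq2 1.42.0 and offsets by robust splines of 5 degrees of freedom (MASS 7.3.60.0.1). Genes were named by rule: every called member, the extremes of value and level in each complex, all of complex II, isoform groups, NDUFA4, NDUFA4L2, COX7A2L, ATP5IF1, RNASEH1, RNH1 and, per companion list, up to 4 called genes of smallest adjusted p. Some genes are not reported here by name. The procedure was tested on simulated data. Replicates of a group all differed by more than sampling noise (chi-square of 6.61 to 21.0 per gene). Counting intervals and limits cover counting error only.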

Additional observations from a re-analysis of the deposited data

How the results depend on the processing

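Of the 13 calls, UQCRC2, NDUFV3, ATP5ME and NDUFS6 were kept under all 18 alternatives and NDUFA4 under 16, and no member's call reversed its direction. The neighbourhood offset, which takes neighbours off by construction, turned the sign of several companion or neighbouring genes, among them, with 10 genes a side, the uncalled GABPA (-0.047) and also CLPTM1L (0.028), CYCS (-0.038), MRPL36 (0.067), POLR3E (-0.26), SCO1 (0.032) and VWDE (-0.090), and with 20 a side CYCS (-0.12), SCO1 (0.010), UQCC4 (-0.0006) and VWDE (-0.043). With library size alone, 14 members were higher and 2 lower; this scaling moved the median of all genes to 0.13 and of the members to 0.12, 73.9% of all calls were then higher, against 55.4%, and the medians of complexes I, II and III were 0.086, 0.27 and 0.20. Members called higher were 5 under the GC content and length offset and 5 with DESeq2; members called lower were 3 under either neighbourhood offset, which gave complex II a median of 0.26 with 10 genes a side. Leaving out 1 library gave 3 to 16 higher and 2 to 5 lower. Deviations from the group means had correlations of 0.045, 0.056 and -0.049 between libraries of the same replicate number. Between libraries of different number they ran from -0.121 to 0.0907. These values do not show whether libraries of the same number were prepared together. With the replicate numbers as a block, 8 members were higher and 3 lower, CYC1 and SDHB losing their calls. The causes of these shifts were not tested. The depth limits low-count members such as UQCRHL, which was not tested, and ATP5MGL and NDUFA7, with SEs of 0.53 and 0.36.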
